A study of Saccharomyces cerevisiae with 16 samples.

Results

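HXT1 to HXT7 are the 7 genes of budding yeast that encode its main hexose transporters, and they were taken as the 7 sense coding-transcript rows named HXT1, HXT2, HXT3, HXT4, HXT5, HXT6 and HXT7, by systematic name (YHR094C, YMR011W, YDR345C, YHR092C, YHR096C, YDR343C and YDR342C in that order), out of 5836 such rows (ORF-Ts) and 12670 rows of all kinds in a strand-specific RNA-Seq count table. All 7 had counts in every library and passed the filter on low counts. The rule goes by name and uses no measured value, but the members were chosen with earlier results of these data known. The libraries came from 4 cultures of rtr1Δ rrp6Δ cells, 3 of rrp6Δ cells (replicates 1, 3 and 4) and 4 of WT cells, all isogenic to BY4741, a MATa laboratory strain, and all grown to an OD600 of 0.8 in rich glucose medium. The rrp6Δ cells were a strain of the knockout collection, in which a kanamycin cassette took the place of RTR1 to give the double deletion. By the study's methods, each replicate was started from a single colony. The genotypes of 1 replicate were grown on 1 day and other replicates on other days. The replicate number is therefore called the growth day here. The sample labels give only a prep number and name no day. Differences between growth days thus cannot be told apart from differences between preparations.

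The hexose transporters are proteins of the plasma membrane that carry glucose, fructose and mannose into the cell down their gradient, and they differ in affinity. Hxt1 and Hxt3 are known as low-affinity carriers used when glucose is abundant, Hxt2 and Hxt4 as carriers of moderate to high affinity, Hxt6 and Hxt7 as high-affinity carriers repressed by abundant glucose, and Hxt5 as a carrier tied to slow growth and reserve metabolism. Their genes are read out through 2 linked circuits: the membrane sensors Snf3 and Rgt2 act through Mth1 and Std1 on the repressor Rgt1, and the kinase Snf1 acts on the repressor Mig1. Rrp6 is the nuclear exonuclease subunit of the exosome, known for clearing noncoding RNAs, and Rtr1 removes phosphates from the tail of RNA polymerase II.

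The libraries held 28765694 to 38578463 counts. Values are given as CPM (counts per 1000000 counts of the library, with TMM scaling over all rows), so they are shares of a library, and less RNA per cell cannot be told apart from fewer cells that carry it. The deleted genes matched the labels: RRP6 had 0.201 to 0.729 CPM in rtr1Δ rrp6Δ cells, 0.265 to 0.412 CPM in rrp6Δ cells and 113 to 194 CPM in WT cells, and RTR1 had 1.08 to 1.46, 13.2 to 16.3 and 19.4 to 21.4 CPM in the same order of genotypes. All 6 a-cell markers were measured, with summed levels of 1518 to 1783 CPM, 1490 to 1694 CPM and 1476 to 2099 CPM in the same order, and the 4 alpha-cell markers summed to at most 34.3 CPM in any library.

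The 7 genes lie at 3 places in the genome (RefSeq assembly R64, the sequence of sacCer3). HXT4 (VIII, 287081 to 288811), HXT1 (VIII, 290913 to 292625) and HXT5 (VIII, 294669 to 296447) follow each other on the minus strand of chromosome VIII, and HXT7 (IV, 1154216 to 1155928), HXT6 (IV, 1159608 to 1161320) and HXT3 (IV, 1162957 to 1164660) on the minus strand of chromosome IV. HXT2 (XIII, 288079 to 289704) lies alone on the plus strand of chromosome XIII. Each gene is 1 coding exon of 1626 to 1779 bases, and no other annotated gene overlaps one of them. The only annotated gene in the 2101 bases between HXT4 and HXT1 is AHT1, on the plus strand.

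HXT6 and HXT7 can hardly be told apart by short reads. Their coding sequences of 1713 bases were identical at 1710 positions (99.8%), with an identical run of 1631 bases from the start codon, while the other pairs of members shared 62.9% (HXT2 and HXT5) to 81.9% (HXT1 and HXT3). The 3 differences, counted from the A of the start codon with the base of HXT6 first, were T1632C, G1666A and T1677C. The stretch that holds all 3 (coding bases 1618 to 1677, minus strand) is shown because it is the only part of either coding sequence by which a read inside it can be assigned, and capitals mark the bases that differ.
HXT6 (chrIV:1159644-1159703): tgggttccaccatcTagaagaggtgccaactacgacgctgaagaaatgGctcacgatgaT
HXT7 (chrIV:1154252-1154311): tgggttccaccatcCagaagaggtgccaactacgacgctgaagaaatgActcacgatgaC
Of the 1639 windows of 75 bases in each coding sequence, 82 (5.0%) occurred once in the genome, and the other 1557 (95%) occurred in both genes. For the other members the share of such windows found once was 91.8% for HXT3, 97.3% for HXT1, 97.4% for HXT5, 99.8% for HXT4 and 100% for HXT2. The read length and the treatment of reads with several matches are not given in the sources used here. The separate values of HXT6 and HXT7 are thus uncertain. Their summed row is given beside them in the comparisons between genotypes with TMM scaling over all rows.

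**Figure D1:**
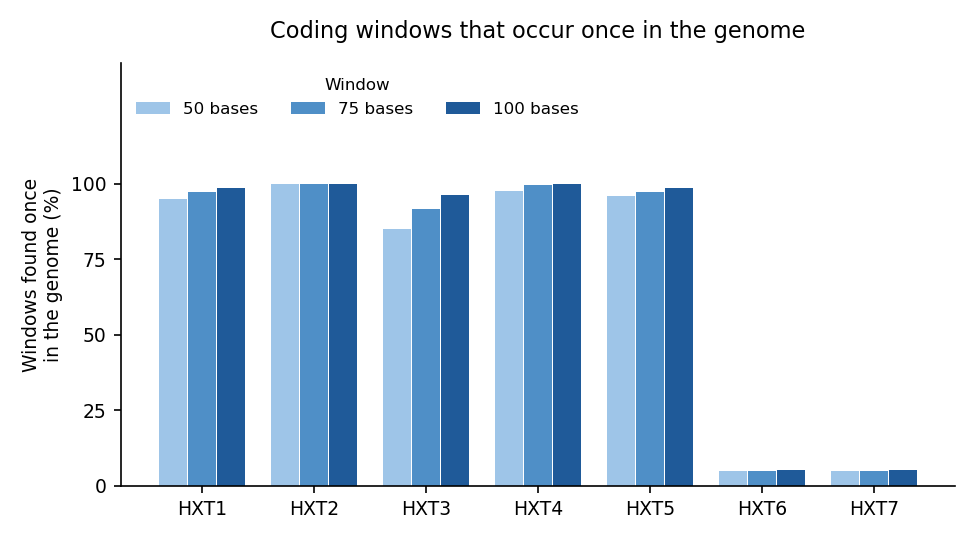
Share of windows of 50, 75 and 100 bases in the coding sequence of each hexose transporter gene that occur once in the yeast genome, in percent. At 75 bases HXT6 and HXT7 stand at 5.0% each, and the other 5 genes between 91.8% and 100%.

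The region before the start codon is shown for HXT4, which the comparisons below turn on, and for HXT1, whose level moved the other way between growth days. In the HXT4 stretch (544 to 245 bases before the start codon, minus strand), capitals mark 2 matches to CGGANNA, a core of the Rgt1 motif, and 3 matches to a Mig1 core, which is GCGGGG in 1 form, CCGGGG in another, GTGGGG in the next and CTGGGG in the last, on either strand. In the HXT1 stretch (1000 to 701 bases before the start codon, minus strand), capitals mark 4 matches to CGGANNA, and it holds 0 Mig1 cores. Outside this stretch, HXT1 had Mig1 cores 78 and 59 bases before its start codon. Each stretch was picked as the 300 bases, within 1000 before the start codon, with the most matches to these motifs. On ties the one farthest from the gene was taken.
HXT4 (chrVIII:289056-289355): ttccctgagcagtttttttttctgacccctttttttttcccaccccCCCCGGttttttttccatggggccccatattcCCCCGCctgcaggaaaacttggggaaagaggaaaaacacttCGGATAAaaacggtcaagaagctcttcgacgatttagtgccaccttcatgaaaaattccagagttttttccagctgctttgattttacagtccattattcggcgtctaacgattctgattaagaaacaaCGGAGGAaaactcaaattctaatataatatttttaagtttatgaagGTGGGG
HXT1 (chrVIII:293326-293625): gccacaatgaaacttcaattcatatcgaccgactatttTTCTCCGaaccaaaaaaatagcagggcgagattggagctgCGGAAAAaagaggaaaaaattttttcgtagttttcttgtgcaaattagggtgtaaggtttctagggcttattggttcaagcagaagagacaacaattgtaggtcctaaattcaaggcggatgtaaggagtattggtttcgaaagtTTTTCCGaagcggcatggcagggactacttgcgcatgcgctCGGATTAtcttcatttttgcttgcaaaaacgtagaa
Over the 1000 bases before the start codon and both strands, CGGANNA occurred 8 times at HXT1, 3 at HXT2, 9 at HXT3, 3 at HXT4, 4 at HXT5, 3 at HXT6 and 2 at HXT7. At least 1 match stood in 66.5% of the 5996 windows of this kind in the genome, at least 3 in 11.2% of them, at least 8 in 2 windows and at least 9 in 1. The 2 low-affinity carriers thus had more matches than any other window. The Mig1 cores occurred 4 times at HXT2 and at HXT4, which 0.834% of windows reached, and 1 to 3 times at the other members, where 41.8% of windows held at least 1. Of these, HXT6 had 3, which 2.89% of windows reached. The stress element AGGGG occurred 5 times at HXT6, 4 at HXT7, 2 at HXT5, 1 each at HXT1, HXT3 and HXT4, and 0 times at HXT2. At least 1 stood in 55.0% of windows, at least 4 in 2.23% and at least 5 in 0.634%. Matches to different motifs did not overlap in these windows, and a match describes letters, not a bound factor.

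Per kilobase of coding sequence, the order of the mean levels was the same in each genotype: HXT3, HXT2, HXT4, HXT1, HXT7, HXT6 and HXT5. HXT3 averaged 831 CPM per kb in rtr1Δ rrp6Δ cells, 764 in rrp6Δ cells and 883 ± 262 in WT cells (SD, n = 4). HXT2 averaged 745, 753 and 682 ± 88.0 CPM per kb in the same genotypes. These 2 genes overlapped each other in every genotype, and together they took 82.1% to 94.1% of all counts on HXT1 to HXT7. The next gene down, HXT4, averaged 133 CPM per kb in rtr1Δ rrp6Δ cells, 143 in rrp6Δ cells and 52.5 ± 25.8 in WT cells, and in no genotype did it reach the lowest library of HXT2. HXT1 averaged 42.9, 50.1 and 50.5 ± 19.3 CPM per kb in the same genotypes and overlapped HXT4 in each. HXT7 averaged 22.5, 26 and 17.6 ± 9.17 CPM per kb, HXT6 11.4, 13.0 and 11.9 ± 8.45, and HXT5 1.12, 0.949 and 2.42 ± 1.05. Among these lower neighbours, HXT1 and HXT7 did not overlap in WT cells and HXT6 and HXT5 did not overlap in rrp6Δ cells, and the other neighbours did. The 7 genes took 0.301% of library counts in rtr1Δ rrp6Δ cells (0.258% to 0.375%), 0.314% in rrp6Δ cells and 0.268% in WT cells (0.209% to 0.351%).

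**Figure D2:**
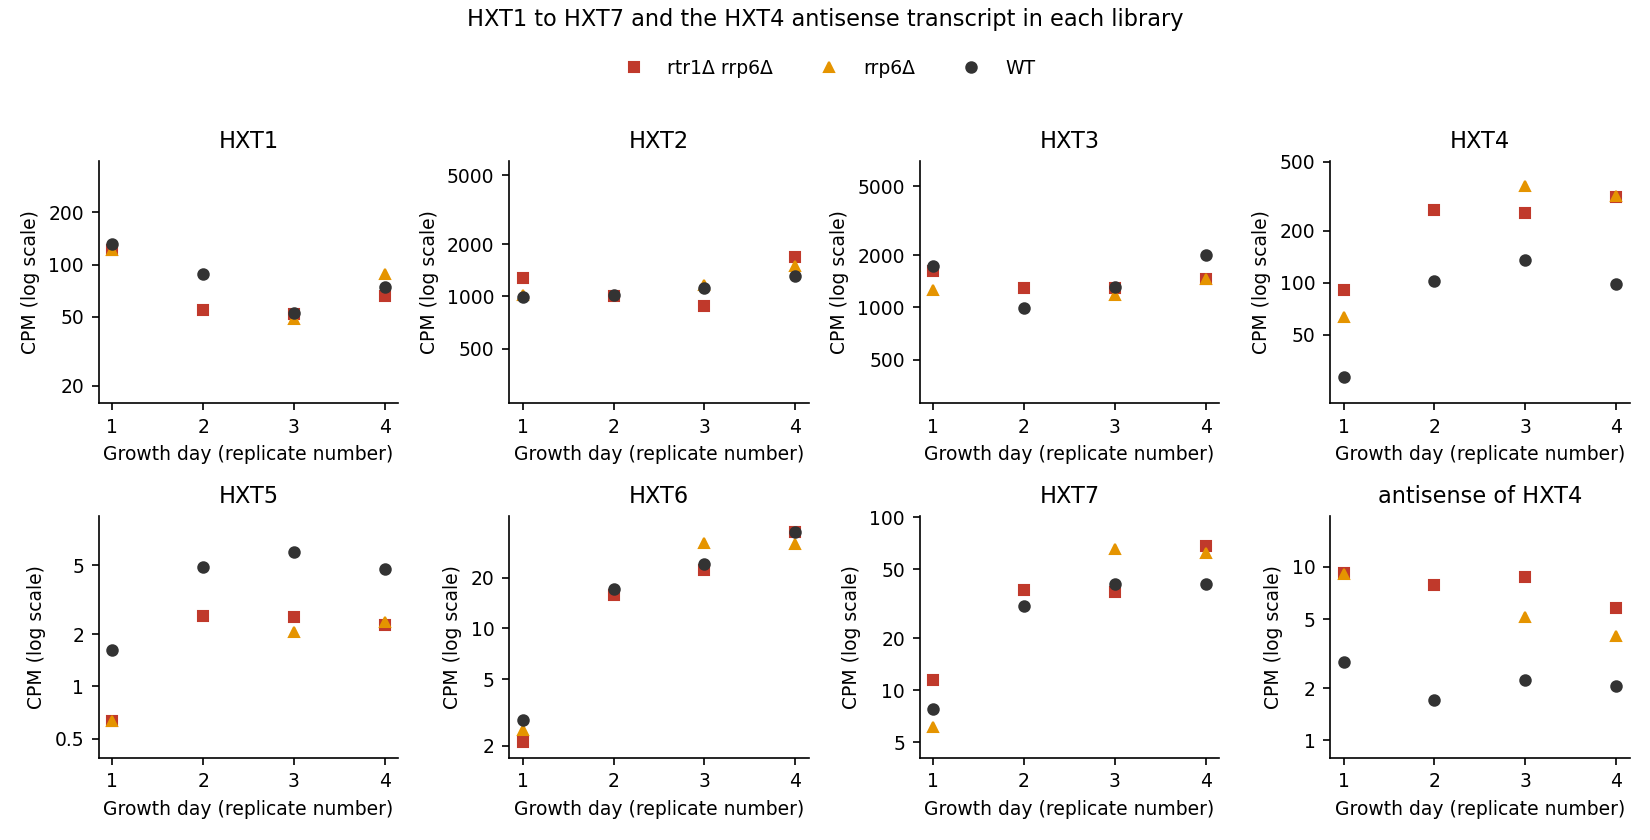
Level of each hexose transporter gene and of the antisense row of HXT4, in CPM on a log axis, by growth day, with 1 point per library and a marker for each genotype. HXT4, HXT5, HXT6 and HXT7 are lower on day 1 than on any other day in all 3 genotypes, and HXT1 is higher.

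The first comparison asked how the hexose transporter transcripts differ where the exosome subunit Rrp6 is missing. HXT4 was higher and HXT5 lower in rrp6Δ cells than in WT cells on every shared growth day. HXT4, a carrier of moderate to high affinity, had 63.8, 361 and 319 CPM in rrp6Δ cells on days 1, 3 and 4, against 28.4, 102, 135 and 98.7 CPM in WT cells on days 1 to 4. The rrp6Δ library of day 1 lay below 3 of the 4 WT libraries, so the groups overlapped, but within a day the ratio was 2.24 on day 1, 2.68 on day 3 and 3.23 on day 4. Without the growth day in the model, the log2 difference was 1.45 ± 0.594 (SE), with an adjusted p of 0.0501 by the quasi-likelihood test of edgeR. With the growth day as a block, HXT4 rose by 1.43 ± 0.146 on the log2 scale, a 2.69-fold difference with an adjusted p of 1.3e-06.

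HXT5, the carrier linked to slow growth, had 0.633, 2.07 and 2.36 CPM in rrp6Δ cells, against 1.63, 4.89, 5.96 and 4.75 CPM in WT cells. The WT library of day 1 lay among the rrp6Δ libraries, and on each of the 3 shared days the rrp6Δ library was lower, by 0.99 to 1.5 on the log2 scale. HXT5 was the least abundant member, with 20 counts in the lowest rrp6Δ library and 46 counts in the lowest WT library. Its log2 difference was -1.34 ± 0.525 without the growth day (adjusted p = 0.0420, edgeR) and -1.25 ± 0.152 with it (adjusted p = 6.9e-06), which is 2.37-fold lower in rrp6Δ cells.

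The other 5 members did not pass the test in either model. HXT1 differed by -0.06 ± 0.120 on the log2 scale with the growth day in the model, HXT2 by 0.07 ± 0.130 and HXT6 by 0.05 ± 0.133. HXT3 was lower in rrp6Δ cells on 3 of 3 days, with a log2 difference of -0.28 ± 0.126 and an adjusted p of 0.0542 in edgeR with the block. In that model it was called lower when WT replicate 2 or rrp6Δ replicate 3 was left out. HXT7 differed by 0.41 ± 0.202 (adjusted p = 0.0744) and was higher on 2 of 3 days. The summed row of HXT6 and HXT7 differed by 0.25 (adjusted p = 0.168, edgeR with the block). Without the growth day 1 member was called, HXT5, where 48% of all ORF-Ts were called and 42.5% were called lower. With the growth day 2 of 7 members were called, 1 in each direction, where 76.6% of ORF-Ts were called, 8.52% as higher and 68.1% as lower. The median log2 difference was 0.05 over the 7 members and -0.29 over all ORF-Ts in that model.

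The split of calls into higher and lower depended on the scaling. Without the growth day in the model and with TMM factors from ORF-T rows alone, 53.2% of the ORF-Ts called in rrp6Δ cells were higher, against 11.5% with factors from all rows, and the median ORF-T moved to 0.0033. For rtr1Δ rrp6Δ cells the same shares were 50.7% and 13.9%. HXT4 and HXT5 kept their directions in both genotypes under each scaling tried. With the growth day in the model and ORF-T factors, HXT4 differed by 1.72 and HXT5 by -0.97 in rrp6Δ cells, and HXT2 (0.37), HXT6 (0.33) and HXT7 (0.70) were also called higher there. In rtr1Δ rrp6Δ cells the same model called HXT4 (1.64), HXT7 (0.60) and HXT2 (0.33) higher and HXT5 (-0.90) lower. In that model 42.6% of ORF-Ts were called in rrp6Δ cells (22.7% higher and 19.9% lower) and 47.8% in rtr1Δ rrp6Δ cells (24.4% higher and 23.4% lower). HXT2 and HXT6 were called higher with this scaling and not with factors from all rows. The summed row of HXT6 and HXT7 was not fitted with ORF-T factors, so the separate calls of these genes there are uncertain. With factors from all rows HXT7 was called higher in rrp6Δ cells without growth day 1, at 0.74 (adjusted p = 0.0157, edgeR) and, with the growth day in the model, 0.61 (adjusted p = 0.0097). It was called in the same way with the growth day in the model without rrp6Δ replicate 1 (0.66) and, in rtr1Δ rrp6Δ cells, without replicate 3 of that genotype (0.59).

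The second comparison set rtr1Δ rrp6Δ cells against WT cells. HXT4 was higher and HXT5 lower than in WT cells on all 4 shared growth days. HXT4 had 91.3, 264, 253 and 315 CPM in rtr1Δ rrp6Δ cells on days 1 to 4, against 28.4, 102, 135 and 98.7 CPM in WT cells. Only the day 1 library of the double deletion reached into the WT range, and within a day the ratio was 3.21, 2.59, 1.88 and 3.19, so HXT4 was higher on 4 of 4 days. Its log2 difference was 1.34 ± 0.561 without the growth day (adjusted p = 0.0576, edgeR) and 1.42 ± 0.133 with it (adjusted p = 5.3e-07), a 2.67-fold difference. HXT5 had 0.630, 2.56, 2.52 and 2.26 CPM in rtr1Δ rrp6Δ cells and was lower than the WT library on 4 of 4 days, by 0.92 to 1.29 on the log2 scale. Its log2 difference was -1.10 ± 0.471 (adjusted p = 0.0628) without the growth day and -1.12 ± 0.130 (adjusted p = 4.6e-06) with it, 2.17-fold lower in the double deletion.

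HXT1, a low-affinity carrier, had 122, 54.4, 52.1 and 65.5 CPM in rtr1Δ rrp6Δ cells, against 131, 88.8, 52.3 and 74.3 CPM in WT cells. The double deletion was lower on 4 of 4 days, but by no more than 0.0072 on the log2 scale on day 3. With the growth day in the model the log2 difference of -0.25 ± 0.107 was called (adjusted p = 0.0494, edgeR), and the call was lost with ORF-T factors, where the difference was -0.02 (adjusted p = 0.886), and without any 1 of 5 of the 8 libraries compared. HXT7 differed by 0.37 ± 0.182 (adjusted p = 0.0780), HXT2 by 0.10 ± 0.116, HXT3 by -0.04 ± 0.114 and HXT6 by -0.11 ± 0.118 with the growth day in the model, and none of these 4 passed. The summed row of HXT6 and HXT7 differed by 0.21 (adjusted p = 0.208).

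Without the growth day 0 of 7 members were called in rtr1Δ rrp6Δ cells by edgeR, where 39.7% of ORF-Ts were called. Of the 7, 2 (HXT4 and HXT5) had an unadjusted p under 0.05, and DESeq2 called 1 (HXT5, lower). With the growth day 3 of 7 were called, 1 higher and 2 lower, where 69.5% of ORF-Ts were called, 9% as higher and 60.5% as lower. The median log2 difference was -0.04 over the members and -0.22 over ORF-Ts in that model.

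**Figure D3:**
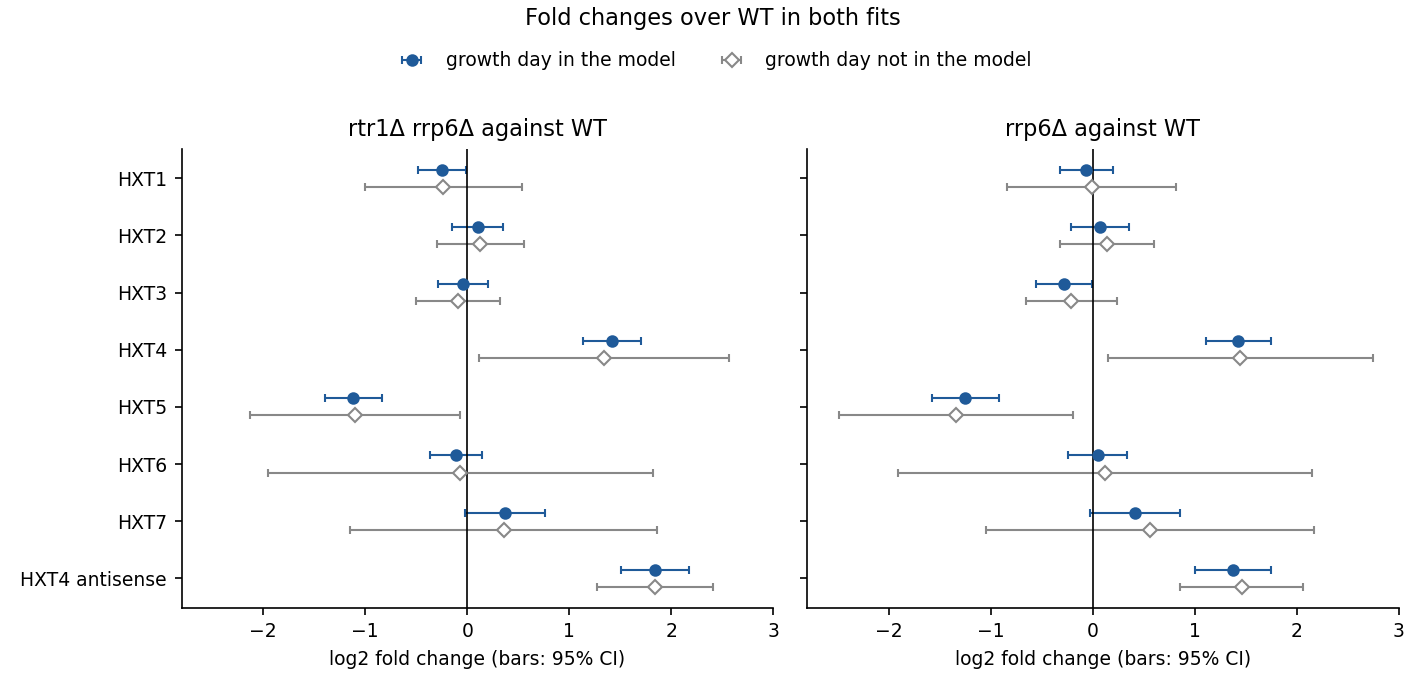
Log2 difference from WT of each hexose transporter gene and the antisense row of HXT4, for rtr1Δ rrp6Δ cells (left) and rrp6Δ cells (right), without and with the growth day in the edgeR model; bars are 95% confidence intervals. HXT4 lies at 1.42 and 1.43 and HXT5 at -1.12 and -1.25 with the growth day, with narrower intervals than without it.

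**Figure D4:**
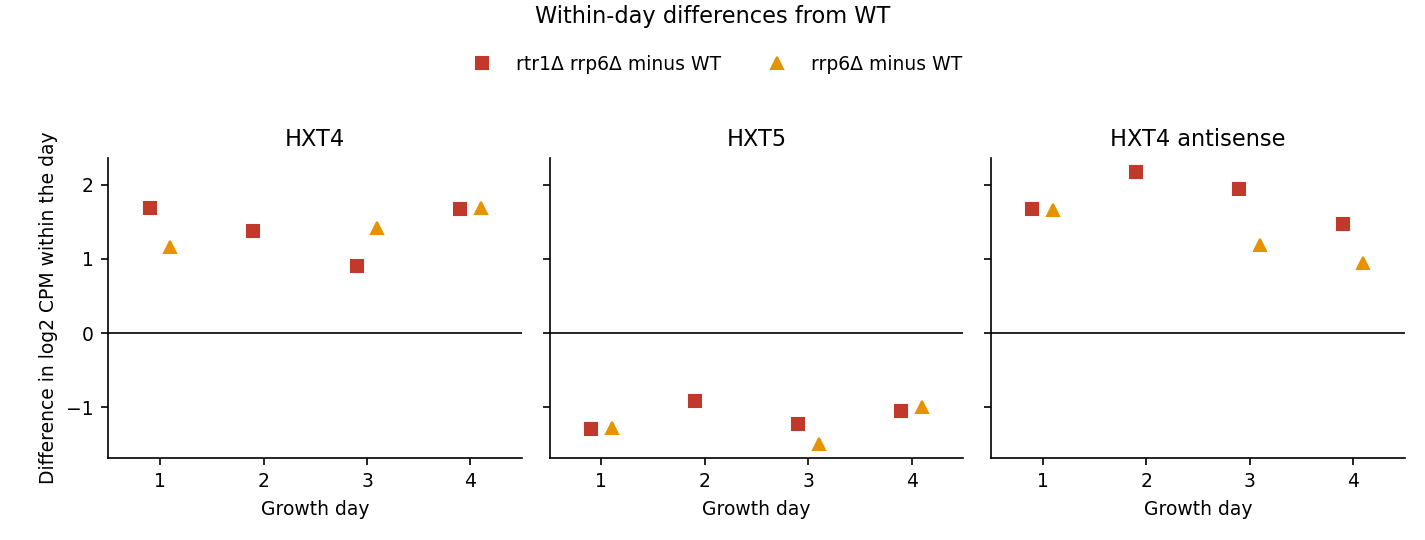
Log2 difference in CPM between a mutant library and the WT library of the same growth day, for HXT4, HXT5 and the antisense row of HXT4, with 1 point per day. All points of HXT4 and of the antisense row lie above 0 and all points of HXT5 below it, on 4 days for rtr1Δ rrp6Δ cells and 3 days for rrp6Δ cells.

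The third comparison asked what the loss of RTR1 added in cells that already lacked RRP6. Of the 7 members, 0 were called in rtr1Δ rrp6Δ against rrp6Δ cells in either edgeR model, where 0.428% of ORF-Ts were called without the growth day and 8.65% with it. The count was 0 as well at an unadjusted p under 0.05 in both models, and with DESeq2. HXT4 differed by -0.01 on the log2 scale with the growth day in the model (95% confidence interval -0.32 to 0.30), and without it by -0.10 (-1.40 to 1.19). On the 3 shared days the HXT4 ratio of the double deletion over rrp6Δ was 1.43, 0.700 and 0.987, so its direction differed between days. HXT5 differed by 0.13 (-0.22 to 0.48), HXT1 by -0.18 (-0.44 to 0.07) and HXT7 by -0.04 (-0.48 to 0.39) with the growth day. The summed row of HXT6 and HXT7 differed by -0.04 (adjusted p = 0.901, edgeR with the block). HXT3 had the smallest adjusted p (0.265 in edgeR with the block) with a difference of 0.24 (-0.04 to 0.52). The 2 mutant genotypes were compared with the same WT libraries, so the values of HXT4 and HXT5 in the 2 comparisons with WT are not independent of each other.

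The table holds an antisense row for 1 member, HXT4 (AS_YHR092C), which covers the HXT4 coding region on the opposite strand. It had 9.18, 7.90, 8.72 and 5.80 CPM in rtr1Δ rrp6Δ cells on days 1 to 4 and 9.09, 5.13 and 4.00 CPM in rrp6Δ cells on days 1, 3 and 4, against 2.83, 1.71, 2.23 and 2.05 CPM in WT cells. The WT libraries lay below every mutant library, and each library held at least 52 counts on this row. How many other rows separate in this way was not counted. The log2 difference was 1.84 ± 0.261 in rtr1Δ rrp6Δ cells (adjusted p = 6.1e-05) and 1.46 ± 0.276 in rrp6Δ cells (adjusted p = 6.2e-04) without the growth day, by edgeR. In that model 36.8% of all 12670 rows were called higher in rtr1Δ rrp6Δ cells and 38.5% in rrp6Δ cells. The authors kept antisense rows because they changed in rrp6Δ cells, so the higher level of this row is no independent evidence. Between the 2 mutants the difference was 0.38 (adjusted p = 0.668), and 0.46 (adjusted p = 0.0750) with the growth day in the model. The sense and antisense strands of HXT4 were thus both higher in the mutants, and sense counts were 7.02 to 79.7 times the antisense counts in every library, lowest on day 1.

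The replicate number was tested as the growth day across genotypes, with genotype in the model. All 7 members differed between days by the quasi-likelihood F test of edgeR, where 55.6% of ORF-Ts did. The members were chosen with earlier results of these data known, so this count is a description and not independent evidence. HXT6, a high-affinity carrier, had the smallest adjusted p (1.6e-07), followed by HXT4 (4.1e-06), HXT7 (9.9e-06), HXT5 (2.0e-05) and HXT1 (3.3e-05). HXT2 (0.0173) and HXT3 (0.0191) were nearer the threshold. HXT2 lost its call without replicate 4 of rrp6Δ or rtr1Δ rrp6Δ cells (adjusted p = 0.157 in the weaker case), and HXT3 without WT replicate 2 or 4 or rrp6Δ replicate 3. Without the libraries of day 1, HXT6 alone was called (adjusted p = 0.0164), and the other 6 had adjusted p values of 0.0588 to 0.723.

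HXT6 had 2.12 to 2.86 CPM in the 3 libraries of day 1, and 15.9 to 17.1, 22.4 to 32.4 and 31.8 to 37.6 CPM on days 2, 3 and 4. HXT7 had 6.14 to 11.4 CPM on day 1, and 30.7 to 38.1, 37.1 to 65.3 and 41.1 to 67.7 CPM on days 2, 3 and 4. No library of day 1 reached a library of another day for either gene, in any genotype. Against the mean of the other days, day 1 differed by -3.34 ± 0.147 on the log2 scale for HXT6, a level 10.1-fold lower (adjusted p = 3.0e-08, edgeR), and by -2.44 ± 0.204 for HXT7, a level 5.44-fold lower (adjusted p = 1.4e-06). The ratio of HXT7 to HXT6 counts ran from 1.09 to 5.38 among libraries, so the 2 rows did not carry the same counts. How shared reads were divided between them is not known, so their separate growth-day calls and fold differences are uncertain.

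HXT4 and HXT5 were also lower on day 1. HXT4 had 28.4 to 91.3 CPM on day 1 and 98.7 to 361 CPM on days 2 to 4, a log2 difference of -1.94 ± 0.140 (adjusted p = 4.7e-07). HXT5 had 0.630 to 1.63 CPM on day 1 and 2.07 to 5.96 CPM on days 2 to 4, a log2 difference of -1.78 ± 0.157 (adjusted p = 2.1e-06). The day 1 libraries thus lay apart from all others for both genes, and within day 1 the WT library was the lowest for HXT4 and the highest for HXT5.

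HXT1 moved the other way. It had 121 to 131 CPM on day 1 and 48.4 to 88.8 CPM on days 2 to 4, a log2 difference of 0.94 ± 0.0983 (adjusted p = 8.7e-06). The 2 most abundant carriers hardly differed on day 1, with HXT3 at 0.23 ± 0.108 (adjusted p = 0.0991) and HXT2 at -0.10 ± 0.113 (adjusted p = 0.514). On day 4 HXT2 had 1307 to 1684 CPM, above the other days in all 3 genotypes, and the antisense row of HXT4 was higher on day 1 by 0.59 ± 0.138 (adjusted p = 0.0038). Of the 7 members, 4 were thus called lower and 1 higher on day 1, where 26.5% and 28.2% of ORF-Ts were called in these directions, and the median was -1.78 over the members and 0.019 over ORF-Ts. These directions were the same under the 4 scalings tried. HXT6 and HXT7 both count among the 4 lower members, though short reads hardly tell them apart, so they are not separate evidence. No row of the table was called for a genotype difference that itself depended on day 1 (0% of 12670 rows), and among the members HXT4 had the smallest unadjusted p of that test (0.0433). Each genotype had 1 library on day 1, so that test had little power. The absence of calls does not show that genotype differences were alike across days. What differed between the days beyond the replicate number was not tested.

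**Figure D5:**
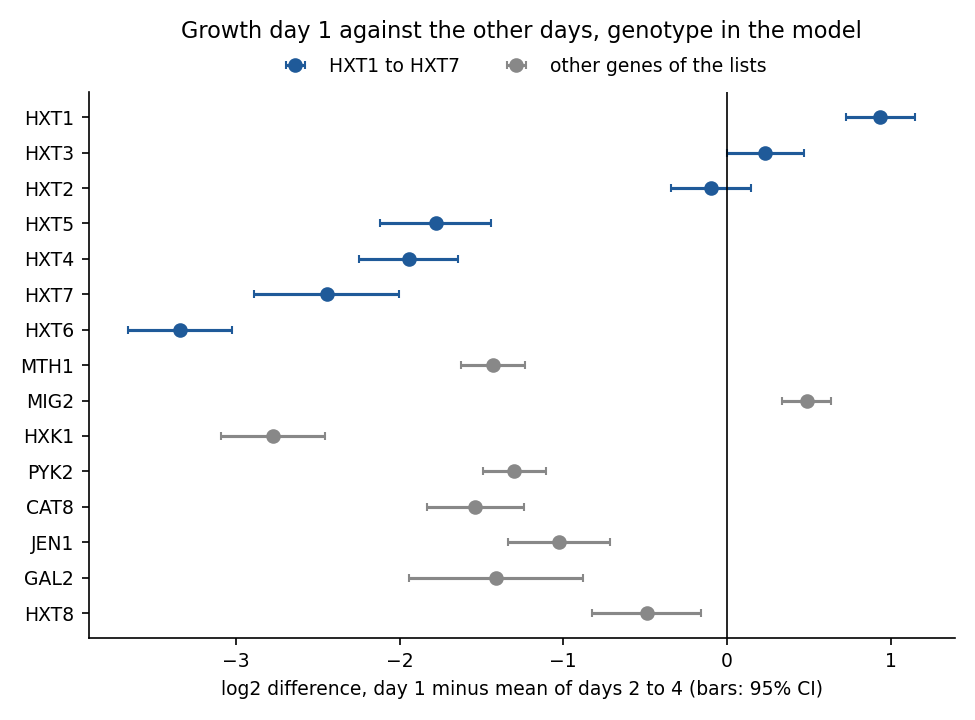
Log2 difference of growth day 1 from the mean of days 2 to 4, with genotype in the model, for the 7 hexose transporter genes and the 2 genes with the smallest adjusted p of each of 4 lists; bars are 95% confidence intervals. HXT6 is lowest at -3.34, and HXT1 stands at 0.94.

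The genes of glucose sensing and metabolism were read from 4 lists chosen by function, with earlier results of these data known. On day 1, 9 of the 11 measured glucose-repressed genes were lower and 0 higher, among them CAT8, an activator of gluconeogenic genes (-1.54 ± 0.137 on the log2 scale), and JEN1, the lactate permease (-1.03 ± 0.144). Of 19 genes of hexose phosphorylation, glycolysis and fermentation, 7 were lower and 0 higher. These included HXK1, hexokinase 1 (-2.77 ± 0.147), GLK1, glucokinase (-1.74 ± 0.125), and TDH1, a glyceraldehyde-3-phosphate dehydrogenase (-2.32 ± 0.185). HXK1 had 77.0 to 157 CPM in the 3 libraries of day 1 and 466 to 1104 CPM in the other 8, so day 1 lay apart here as well. Of the 18 glucose sensing and HXT control genes, 6 were higher and 4 lower, near the shares of all ORF-Ts, with MTH1, the Rgt1 corepressor, at -1.43 ± 0.0903 and MIG2, a repressor related to Mig1, at 0.49 ± 0.0689. Of the 4 other hexose transporter genes measured of 10 listed, 3 were lower, led by GAL2, the galactose permease (-1.41 ± 0.246). GAL2 held only 10 to 14 counts in the libraries of day 1. The adjusted p of the genes named here was at most 5.4e-04 in edgeR, and the 4 lists are read against the 26.5% of ORF-Ts that were lower and the 28.2% that were higher on that day.

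Between genotypes the counts of the same lists depended on the scaling. With the growth day in the model, 2 of the 18 sensing genes were higher and 11 lower in rrp6Δ cells, and 3 higher and 13 lower in rtr1Δ rrp6Δ cells. Of all ORF-Ts 8.52% were higher and 68.1% lower in rrp6Δ cells, and 9% higher and 60.5% lower in rtr1Δ rrp6Δ cells. With ORF-T factors, 5 were higher and 2 lower in rrp6Δ cells, and 4 higher and 3 lower in rtr1Δ rrp6Δ cells, where 22.7% and 24.4% of ORF-Ts were higher and 19.9% and 23.4% lower in the same order of genotypes. The counts of this list thus lay near the background under both scalings. MIG3, a repressor related to Mig1, was higher by 0.94 ± 0.0705 in rtr1Δ rrp6Δ cells and 0.88 ± 0.0775 in rrp6Δ cells, and RGT1, the repressor of HXT genes, by 0.69 ± 0.0811 and 0.62 ± 0.0902. CYC8, a subunit of the corepressor that Rgt1 and Mig1 recruit, was lower by 0.54 ± 0.0707 and 0.53 ± 0.0797 in the same genotypes. MIG3, RGT1 and CYC8 kept these directions under every scaling tried. Without the growth day and with TMM factors from all rows, edgeR called MIG3 in both mutants, RGT1 in rtr1Δ rrp6Δ cells alone and CYC8 in neither. Other settings without the growth day gave other calls. Upper-quartile or ORF-T scaling called RGT1 in rrp6Δ cells too. DESeq2 called CYC8 lower in both mutants, and RLE scaling called it lower in rrp6Δ cells.

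Of the 19 glycolysis and fermentation genes, 13 were lower and 1 higher in rtr1Δ rrp6Δ cells, and 16 lower and 1 higher in rrp6Δ cells, where 60.5% and 68.1% of ORF-Ts were lower. With ORF-T factors 5 were lower in rtr1Δ rrp6Δ cells and 7 in rrp6Δ cells, where 23.4% and 19.9% of ORF-Ts were. TDH2, a glyceraldehyde-3-phosphate dehydrogenase, was lower by 0.72 ± 0.118 in rtr1Δ rrp6Δ cells and 0.83 ± 0.134 in rrp6Δ cells. Of the 11 glucose-repressed genes, 7 were lower in rtr1Δ rrp6Δ cells and 5 in rrp6Δ cells, with 0 higher in both. With ORF-T factors 1 was higher and 5 lower in rtr1Δ rrp6Δ cells, and 4 were higher and 2 lower in rrp6Δ cells, against 24.4% higher and 23.4% lower, and 22.7% higher and 19.9% lower, of all ORF-Ts. CYB2, a mitochondrial lactate dehydrogenase, had the largest difference among them, at -3.27 ± 0.223 in rtr1Δ rrp6Δ cells and -2.59 ± 0.240 in rrp6Δ cells. Its counts were low, at 6 to 31 in rtr1Δ rrp6Δ libraries and 7 to 32 in rrp6Δ libraries, against 55 to 165 in WT libraries. Of the 4 other hexose transporter genes, 2 were lower in rtr1Δ rrp6Δ cells (HXT10, -0.96 ± 0.276, and HXT8, -0.45 ± 0.148) and 1 in rrp6Δ cells (HXT8, -0.44 ± 0.166). Of all ORF-Ts 60.5% and 68.1% were lower in the same order of genotypes. With ORF-T factors 0 were higher and 1 lower in rtr1Δ rrp6Δ cells, and 1 higher and 0 lower in rrp6Δ cells. HXT8 was not called in either mutant with those factors, nor by edgeR without the growth day and with TMM factors from all rows. Without the growth day, RLE scaling and DESeq2 each called it lower in both mutants. Between rtr1Δ rrp6Δ and rrp6Δ cells, ICL1, isocitrate lyase, was the only gene of the 4 lists that was called, lower by 0.62 ± 0.0825 with the growth day in the model. With ORF-T factors 3 of the glucose-repressed genes were called lower there, where 4.15% of ORF-Ts were.

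The pattern of each member over the 11 libraries, as log2 CPM less its genotype mean, was compared with 5678 other ORF-Ts, as a description. All rows share libraries and depth, and the points fall into day 1 and the rest. HXT4, HXT5, HXT6 and HXT7 correlated with each other (Pearson's r of 0.935 to 0.984 over 11 libraries), and HXT1 ran against them (-0.804 to -0.869). HXT6 and HXT7 are hardly told apart by short reads, so their rows are not independent of each other. HXT2 (0.053 to 0.452) and HXT3 (-0.350 to 0.452) followed neither pattern closely. The rows most like HXT4 were ATG39, COX26 and YMR262W (0.99 to 0.993), and those most like HXT5 were HSP78, a mitochondrial chaperone, MCO10 and PIG2 (0.988 to 0.993). AIM19, YBR027C and UGX2 were most like HXT6 (0.994 to 0.998), and PRX1, a mitochondrial peroxiredoxin, YMR262W and TMA10 most like HXT7 (0.995 to 0.996). HXT1 was most like CIN8, a kinesin, CTR9, a subunit of the Paf1 complex, and PMA1, the proton pump of the plasma membrane (0.979 to 0.988). HXT2 (AIM33, BUD13 and DBF2, 0.919 to 0.935) and HXT3 (GYP6, ATX2 and YOR389W, 0.922 to 0.948) had less close neighbours.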

How the data were processed

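Strand-specific libraries of total RNA depleted of ribosomal RNA were sequenced by the authors on an Illumina HiSeq instrument. Reads were aligned to sacCer3 with STAR 2.5.2b and counted per transcript with featureCounts of Subread 1.5.0, per the submitters' processing notes. The deposited counts are whole numbers per transcript. A legend calls them normalized, but their totals differ, and they were treated as raw counts. The same table holds the authors' own fold changes and FDR values, which were not used. The analysis took 11 of the 16 samples, from 3 of 4 genotypes, since the libraries of rtr1Δ cells and replicate 2 of rrp6Δ cells were not analysed here. Another 1 column with values of a single sample had a header that named no sample for sure and was left out. Spike-in RNA was not used.

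Counts were analysed with edgeR 4.0.16 in R 4.3.3 (filterByExpr, 0 rows removed, TMM over all rows, quasi-likelihood tests, Benjamini-Hochberg adjustment over 12670 rows, threshold for a call 0.05). The main model held group means only, and the other model added the replicate number as a block. The study's methods say that 1 replicate of all genotypes was grown on 1 day, and same-numbered libraries deviated together (r of 0.242 to 0.829 over 10 pairs, against -0.678 to 0.367 over 30 other pairs). P-values thus measure the spread between cultures of 1 strain per genotype as labelled. CPM used effective library sizes. DESeq2 1.42.0, other scalings and filters, single left-out libraries and models without day 1 were alternatives; blocked models with ORF-T factors, without day 1 or without single libraries were added after seeing the data. The tests were tried on simulated data first.

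Sequences, positions and windows were read from RefSeq assembly R64 with Biopython 1.88, and 5586 of 5836 ORF-T rows matched it by systematic name. Text names all 7 members, the antisense row opposite a member, up to 4 genes per list and comparison with the smallest adjusted p, and the 3 ORF-Ts (mean of at least 50 counts) most correlated with each member. The members and lists were chosen with earlier results of these data known.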

Additional observations from a re-analysis of the deposited data

Results flagged for a closer look

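HXT5 in rtr1Δ rrp6Δ replicate 1 stood apart from the other libraries of its genotype, at 0.630 CPM (19 counts), with a gap to the next library of 0.844 of the group's whole range. Groups of 4 were examined 16 times, and chance flags about 1 group in 20. The WT library of the same growth day was also the lowest of its genotype, at 1.63 CPM.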

How the results depend on the processing

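The differences of HXT4 and HXT5 from WT kept their directions under every alternative, while the number of members called moved with the model. Of these differences, the main model called only that of HXT5 in rrp6Δ cells. In rrp6Δ cells 1 member was called in the main model, 2 with the replicate block, 3 without growth day 1, 5 with the replicate block and ORF-T factors (HXT2, HXT4, HXT6 and HXT7 higher, HXT5 lower) and 3 with the replicate block without growth day 1. Leaving out single libraries gave 0 to 3. These counts take HXT6 and HXT7 as separate rows, though short reads hardly tell them apart. Without the block HXT5 lost its call without WT replicate 2, 3 or 4 or rrp6Δ replicate 1 or 3, and upper-quartile or ORF-T scaling called HXT4 in place of HXT5. In rtr1Δ rrp6Δ cells 0 were called in the main model, 3 with the replicate block, 1 with RLE, upper-quartile or ORF-T scaling, DESeq2 or a fit of the compared genotypes only, 2 without growth day 1, 4 with the replicate block and ORF-T factors and 2 with the replicate block without growth day 1; leaving out single libraries gave 0 to 4. With the block, HXT4 and HXT5 were called in both mutants with any single library left out, HXT4 at 1.27 to 1.60 in rrp6Δ cells and 1.22 to 1.58 in rtr1Δ rrp6Δ cells. Between the mutants the count was 0 throughout, while the antisense row of HXT4 was called there with the replicate block without growth day 1 (0.72, adjusted p = 0.0383). Across growth days 7 were called, 6 to 7 with single libraries left out and 1 without growth day 1. The cause of these moves was not tested.

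The values below changed sign against the main model and were uncalled in both, on the log2 scale. Against WT in rrp6Δ cells, HXT1 was 0.18 with upper-quartile scaling, 0.29 with ORF-T factors and 0.23 with ORF-T factors and the replicate block, and HXT3 was 0.086 and 0.014 with ORF-T factors without and with the block. With the block and 1 library left out, HXT1 was 0.014 (WT replicate 2), HXT6 -0.062 (WT replicate 3) and -0.26 (rrp6Δ replicate 3), and HXT2 -0.061 (rrp6Δ replicate 3). In rtr1Δ rrp6Δ cells HXT3 and HXT6 were both 0.039 with upper-quartile scaling, 0.14 and 0.14 with ORF-T factors and 0.18 and 0.11 with ORF-T factors and the block. HXT2 was -0.00158 with the block without growth day 1. With the block and 1 library left out, HXT3 was 0.032 (WT replicate 4) and 0.065 (rtr1Δ rrp6Δ replicate 4) and HXT2 -0.060 (rtr1Δ rrp6Δ replicate 1). Between the mutants HXT2 was 0.026 with the block. With single libraries left out and no block, the range in rrp6Δ cells was -0.34 to 0.26 for HXT1, -0.023 to 0.26 for HXT2 and -0.30 to 0.65 for HXT6. In rtr1Δ rrp6Δ cells it was -0.59 to 0.032 for HXT1, -0.073 to 0.25 for HXT2, -0.24 to 0.059 for HXT3, -0.60 to 0.39 for HXT6 and -0.064 to 0.58 for HXT7. Between the mutants it was -0.58 to 0.11 for HXT1, -0.22 to 0.15 for HXT2, -0.56 to 0.28 for HXT4, -0.14 to 0.56 for HXT5, -0.72 to 0.19 for HXT6 and -0.72 to 0.18 for HXT7.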
